A study of Mus musculus with 7 samples.

Results

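Otx1, Sox9, Sox13, Six6, Lhx9, Prox1 and Prdm1 encode transcription factors of eye development, and they were followed here in the retinal pigment epithelium (RPE), the pigmented sheet of cells that backs the photoreceptors. The genes were taken from a list of names, and each was read from every probe set whose array annotation gives that single symbol. All 7 were found among the 5017 genes measured, with 54 of the 65535 probe sets of the table. Of those genes 4918 lie on chromosomes 1, 10, 11, 12 and 13, and the table may be cut off, so counts and shares of all genes below refer to this table and not to the whole array. The series held 7 Affymetrix arrays of total RNA from RPE dissected from mouse pups at postnatal day 5. Of these, 3 arrays came from Dicer1-deficient RPE, whose genotype is given as Dicer1loxP/loxP;Dct-Cre, and 4 came from control RPE, whose genotype the labels do not state. All pups are described as coming from matings of Dicer1 flox/+ mice carrying Dct cre with mice homozygous for the floxed allele. Every pup of such a mating inherits at least one floxed Dicer1 allele, the controls included, and some controls could carry the Cre transgene. Dct is the dopachrome tautomerase gene, and its promoter is active in melanoblasts as well as in the RPE, so deletion may also occur in melanocytes. The labels do not say whether an array stands for a single animal or a pool. The p-values therefore set a group difference against the spread between these arrays, which may be partly technical.

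Mature microRNAs are released from their hairpin precursors by the Dicer1 enzyme, and they lower the stability and translation of messenger RNAs that match their seed, the short stretch near the 5′ end. In the mouse eye, the optic vesicle first turns on a shared set of homeobox genes and is then divided into retina and RPE. Otx1 and its paralog Otx2 are needed on the RPE side, and Sox9 acts with Otx2 and Mitf on genes of the mature RPE. Six6 and Lhx9 belong to the retinal side, while Prox1 and Prdm1 act later, in the choice of retinal cell types.

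The Dicer1 enzyme makes microRNAs that have been described as regulators of Prdm1 and Prox1 outside the eye, and 4 of them are shown because the deletion is aimed at their production. Prdm1 is a described target of let-7 and miR-9 in human lymphoid cells, and Prox1 is a described target of miR-181a and miR-31 in endothelial cells. The mature sequences below are those of mouse in RefSeq (GRCm38.p6), written 5′ to 3′ with the seed, bases 2 to 8, in capitals, and no seed is shared between them.
mmu-let-7a-5p: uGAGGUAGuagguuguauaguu
mmu-miR-9-5p: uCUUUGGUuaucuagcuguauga
mmu-miR-181a-5p: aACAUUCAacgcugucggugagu
mmu-miR-31-5p: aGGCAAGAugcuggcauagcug
The Mirlet7a-1 copy of the let-7a sequence lies at chr13:48538239-48538260 on the minus strand (other copies are not given here), and the sequence of miR-31 lies at chr4:88910614-88910635 on the minus strand. The miR-9 sequence has 3 copies, at chr3:88215613-88215635, chr7:79505279-79505301 and chr13:83738821-83738843, and that of miR-181a has 2, at chr1:137966468-137966490 and chr2:38852741-38852763, all on the plus strand. The microRNAs themselves were not measured in these arrays, and no target site was searched for.

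The values are log2 signals, with a median of 6.22 and a lower quartile of 4.63 over the whole table. No detection calls were used, so a signal under that median may be background. The arrays of each group correlated at 0.980 to 0.984 among the Dicer1-deficient ones and at 0.986 to 0.988 among controls 1 to 3, while r between control 4 and the rest was 0.942 to 0.951 and had the lowest median (6.05). Dicer1 itself read 10.57 ± 0.13 (SD, n = 3) in Dicer1-deficient and 10.62 ± 0.26 (SD, n = 4) in control arrays at its brightest probe set, and none of its 28 probe sets passed the test over the whole table. The labels do not give the floxed part of the gene, so these probe sets do not check the genotype. As markers of the tissue, Pmel of the melanosome (12.61 in Dicer1-deficient and 12.66 in control arrays) and the retinol dehydrogenase gene Rdh5 (10.82 in Dicer1-deficient and 11.20 in control arrays) lay far above the table's median in both groups.

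Otx1 was the 1 gene of the 7 that changed at its brightest probe set, and it rose. Its product is a homeodomain protein of the orthodenticle family. At probe set 10384616 the Dicer1-deficient arrays read 8.06, 8.37 and 8.22, and the control arrays read 6.51, 6.64, 6.38 and 5.76. The groups did not overlap, and control 4 was the lowest array. This probe set was the brightest of Otx1 over the 7 arrays only through its Dicer1-deficient arrays. In control arrays it averaged 6.32, under the 6.64 of probe set 10384618, whose difference was 0.81. The size at 10384616 thus rests on a choice that the tested difference entered. At 10384616 the difference, Dicer1-deficient minus control, was 1.90 on the log2 scale (95% interval 1.41 to 2.38, SE 0.21), which is 3.73-fold. The limma adjusted p was 0.00436, after Benjamini-Hochberg correction across the 5017 genes. In that test 2.33% of all genes were called, 1.42% as higher and 0.917% as lower, and 1 call among 7 genes is to be read against that share. Without control 4 the difference was 1.71 (limma adjusted p = 6.66e-04), and over the 7 fits that each left out 1 array it ran from 1.71 to 2.0, with adjusted p from 6.66e-04 to 0.0300. In bulk samples, a change in the number of cells of a type and a change in RNA per cell cannot be told apart.

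**Figure D1:**
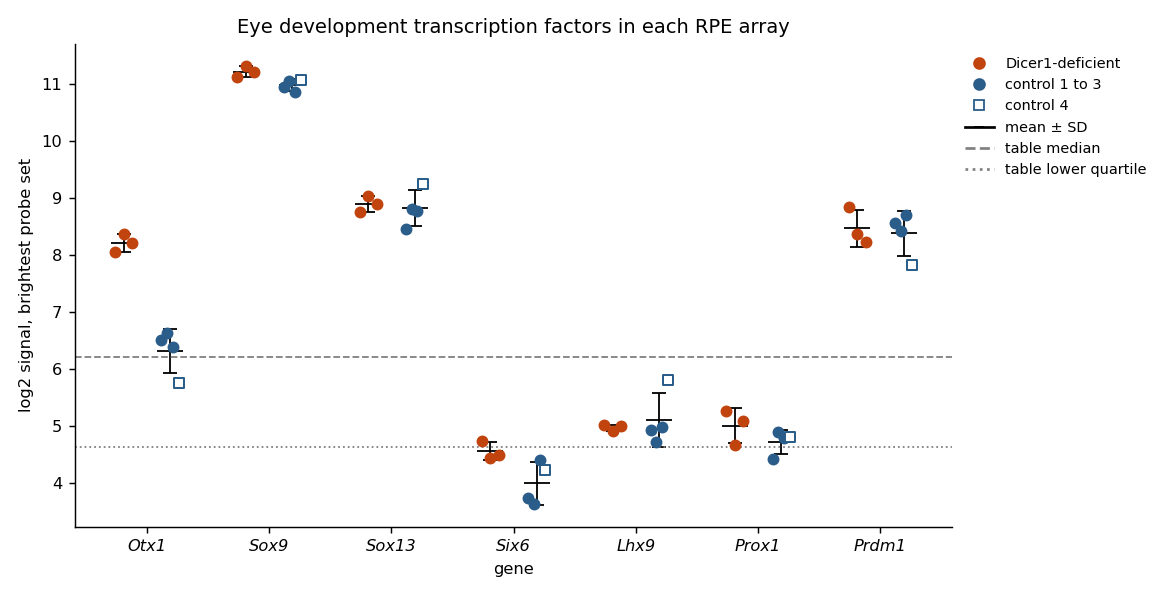
Log2 signal (vertical axis) of the brightest probe set of each gene (horizontal axis) in 3 Dicer1-deficient and 4 control arrays, with mean and SD as black bars and the median (6.22) and lower quartile (4.63) of the table as lines. Levels of different genes come from different probes and are not to be compared. The Dicer1-deficient arrays of Otx1, at 8.06 to 8.37, all lie above its control arrays, at 5.76 to 6.64.

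All 6 probe sets of Otx1 had a positive difference, and 5 of them had every Dicer1-deficient array above every control array, which held for 7.25% of all probe sets. Probe set 10384617 read 5.31, 5.66 and 5.31 in Dicer1-deficient arrays and 3.68, 3.64, 3.97 and 3.83 in control arrays, a difference of 1.65 (limma adjusted p over all probe sets = 0.00435). Probe set 10384619 read 5.41, 5.68 and 5.55 in Dicer1-deficient arrays and 4.01, 4.20, 3.73 and 4.27 in control arrays, a difference of 1.5 (limma adjusted p = 0.00913). In both, the control arrays lay under the lower quartile of the table, so the control level may be background. Probe set 10384618, whose signal exceeded the table's median in every array, read 7.24, 7.61 and 7.48 in Dicer1-deficient arrays and 6.62, 6.59, 6.73 and 6.61 in control arrays, a difference of 0.81 (limma adjusted p = 0.0395). With 10384616 (limma adjusted p = 0.0111), 4 of the 6 passed over all 65535 probe sets, where 0.856% were called, 0.533% as higher and 0.323% as lower. No member probe set was called lower.

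The remaining probe sets of Otx1 were dim and did not pass with all 7 arrays. Probe set 10384621 read 4.19, 4.46 and 4.33 in Dicer1-deficient arrays and 3.67, 3.67, 3.57 and 4.02 in control arrays, a difference of 0.59 (limma adjusted p = 0.157). Probe set 10384620 read 4.77, 4.77 and 4.18 in Dicer1-deficient arrays and 4.04, 3.99, 3.74 and 4.27 in control arrays, a difference of 0.56 (limma adjusted p = 0.324), and it was the only one of Otx1 with overlapping groups. With 1 array left out at a time, 10384617 passed in all 7 fits, 10384619 in 5, 10384616 in 4, and 10384618 and 10384621 in 1 each, the fit without control 4. In that fit 10384621 had a difference of 0.69 (limma adjusted p = 0.0351). Without Dicer1-deficient array 2 or 3, 10384617 was the only member probe set called (limma adjusted p = 0.0309 and 0.0329).

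On the mean of its 6 probe sets Otx1 read 5.83, 6.09 and 5.84 in Dicer1-deficient arrays, against 4.75, 4.79, 4.69 and 4.79 in control arrays. The 4 controls lay close together on this mean, where departures of control 4 in opposite directions offset each other. It was the lowest control at 10384616 (5.76) and the highest at 10384619, 10384620 and 10384621 (4.27, 4.27 and 4.02). The difference was 1.17 on the log2 scale (95% interval 0.96 to 1.37), or 2.25-fold, with a limma adjusted p of 1.06e-04, where 5.86% of all genes were called on such means and 3.03% as higher. Each of the 7 fits that left out 1 array passed, with differences of 1.08 to 1.21.

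Whether the probe sets of Otx1 differed from each other depended on the test. Limma's diffSplice, which pools the spread over the probe sets of a gene and on simulated data also called probe sets of genes with a uniform change or none, gave Otx1 unequal differences along the gene (F test, adjusted p = 3.68e-04, with 1.34% of genes called), and it singled out 10384616 (adjusted p = 0.0309, with 0.239% of probe sets called), 0.88 above the rest of the gene. A limma fit to each probe set minus the mean of the others in the same array called none of the 6 (adjusted p from 0.420 to 0.843, with 0.0377% of probe sets called). Its unadjusted limma p ran from 0.00175 to 0.0387 over the 6, and its differences were the same as those of diffSplice. The lack of calls therefore does not show that the probe sets changed alike. The annotation used gives no position of the probe sets within the gene.

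**Figure D2:**
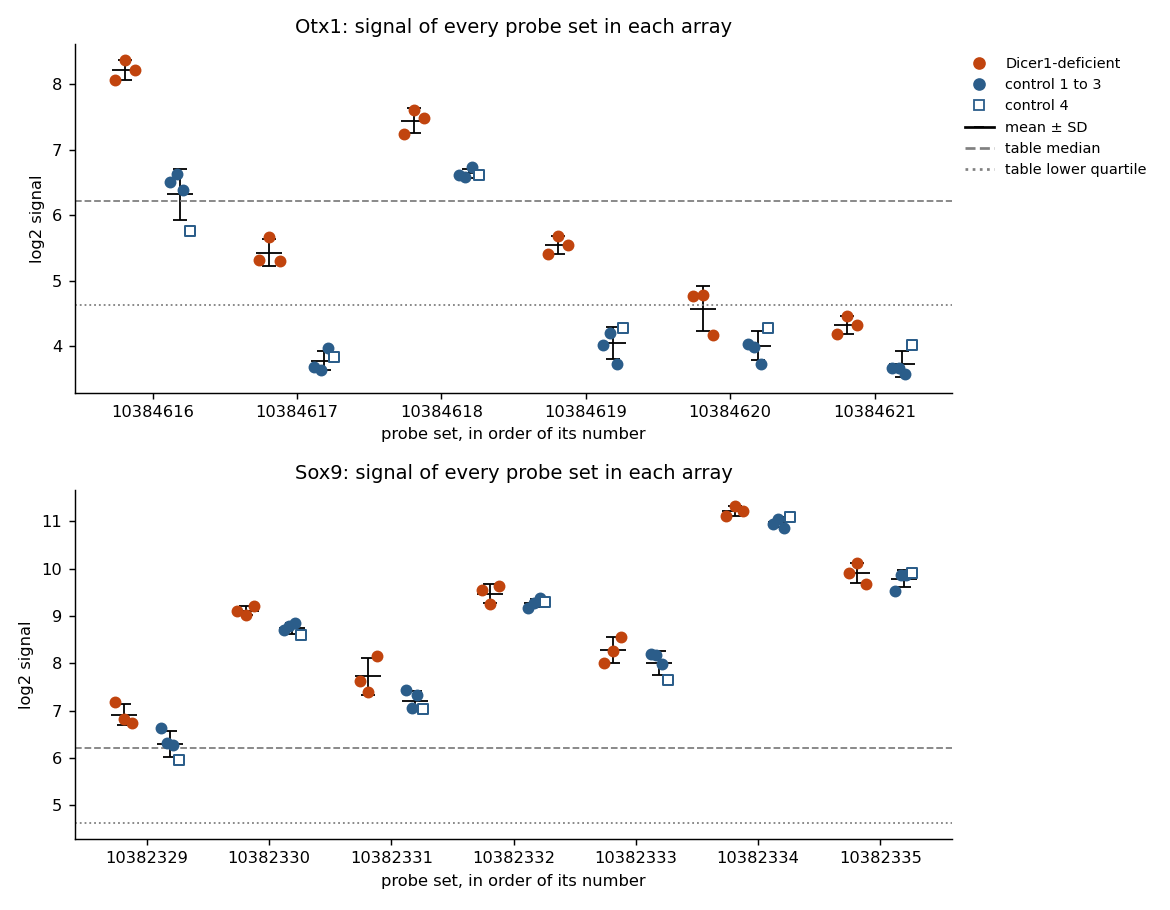
Log2 signal (vertical axis) of every probe set of Otx1 (top, 6 probe sets) and Sox9 (bottom, 7 probe sets) in each array, with mean and SD as black bars, ordered by probe set number. The groups are apart in 5 of the 6 probe sets of Otx1 and in 3 of the 7 of Sox9. In each of these the Dicer1-deficient arrays are higher, as in 7.25% of all probe sets. The differences of Sox9 are smaller (0.11 to 0.62 on the log2 scale, against 0.56 to 1.90 for Otx1).

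Sox9 gave small differences of the same sign in all its probe sets, none passing on its own, and its call depended on how its probe sets were combined. Sox9 is an HMG-box factor that is found in RPE, in Mueller glia and in cartilage. At its brightest probe set, 10382334, the Dicer1-deficient arrays read 11.12, 11.32 and 11.23, and the control arrays read 10.95, 11.06, 10.86 and 11.09. The groups did not overlap, by a margin smaller than the spread within either group. The difference was 0.24 on the log2 scale (95% interval 0.00 to 0.48 with the lower bound at -0.00329) and did not pass (limma adjusted p = 0.351). Such a lack of overlap, in either direction, was found in 16.3% of all genes, and every Dicer1-deficient array lay above every control array in 9.27%.

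All 7 probe sets of Sox9 had positive differences, from 0.11 to 0.62, and all 7 had a mean signal above the table's median. Of the genes with at least 6 probe sets, 6% had only positive differences. Probe set 10382330 read 9.11, 9.01 and 9.21 in Dicer1-deficient arrays and 8.71, 8.79, 8.85 and 8.60 in control arrays, a difference of 0.37 (limma adjusted p over all probe sets = 0.285). Probe set 10382329 read 7.18, 6.83 and 6.75 in Dicer1-deficient arrays and 6.64, 6.32, 6.28 and 5.96 in control arrays, a difference of 0.62 (limma adjusted p = 0.253). These and 10382334 were the 3 whose groups did not overlap, and no probe set of Sox9 passed on its own. In each of the 3 the Dicer1-deficient arrays were higher, which held for 7.25% of all probe sets.

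On the mean of its 7 probe sets Sox9 passed. It read 8.93, 8.88 and 9.03 in Dicer1-deficient arrays, against 8.66, 8.65, 8.65 and 8.51 in control arrays, so every Dicer1-deficient array was above every control array, as in 10.2% of all genes. The difference was 0.33 on the log2 scale (95% interval 0.15 to 0.51), or 1.26-fold, with a limma adjusted p of 0.0461. With only probe sets above the table's median in the fit, Sox9 kept the same 0.33 and did not pass (limma adjusted p = 0.0513). Leaving out any of controls 1 to 3 or any Dicer1-deficient array ended the call (limma adjusted p from 0.0957 to 0.211, differences from 0.29 to 0.36), and leaving out control 4 kept it (0.29, adjusted p = 0.0119). Of the Mueller glia and astrocyte markers, 5 of 17 were measured and none passed, with a mean level of 8.50 to 8.98 in Dicer1-deficient and 8.25 to 8.84 in control arrays. Their part in the value of Sox9 was not tested.

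Sox13 encodes a factor of the SoxD group, which lacks a transactivation domain of its own. At its brightest probe set, 10357801, the Dicer1-deficient arrays read 8.76, 9.04 and 8.90 and the control arrays 8.46, 8.81, 8.78 and 9.25. The groups overlapped, and control 4 was the highest of all arrays. The difference was 0.07 on the log2 scale with a 95% interval of -0.35 to 0.49 (limma adjusted p = 0.952). Of its 16 probe sets 9 had positive and 7 negative differences, with a median of 0.02 and a range of -0.51 to 0.33, and none passed or had groups that did not overlap. On their mean the difference was -0.02 (95% interval -0.21 to 0.18), so the sign turned and the interval left out changes such as that of Otx1.

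Prdm1, also called Blimp1, steers retinal precursors toward photoreceptors in mouse retina and plasma cell formation in B cells. At probe set 10368974 it read 8.84, 8.36 and 8.22 in Dicer1-deficient arrays and 8.57, 8.42, 8.71 and 7.83 in control arrays. The groups overlapped, and control 4 was the lowest array. The difference was 0.09 (95% interval -0.46 to 0.64, limma adjusted p = 0.952). It was -0.09 without control 4 and -0.07 on the mean of its 8 probe sets. Of these probe sets, 4 had positive and 4 negative differences, from -0.55 to 0.28. Probe set 10368972 was the only one whose groups did not overlap, at 4.47, 4.49 and 4.52 in Dicer1-deficient arrays and 4.99, 4.91, 4.79 and 4.66 in control arrays, a difference of -0.34 in a dim range. Every Dicer1-deficient array lay below every control array in 6.1% of all probe sets. For this described let-7 and miR-9 target, no difference passed, and the interval of the brightest probe set reaches 0.64 on the log2 scale.

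The retinal homeobox genes Six6 and Lhx9 and the horizontal cell and lens factor Prox1 read under the table's median in every array, and nothing about them passed. Six6, which acts in the optic vesicle and retinal progenitors, has only 2 probe sets. At 10396371 it read 4.74, 4.44 and 4.50 in Dicer1-deficient arrays and 3.73, 3.62, 4.41 and 4.22 in control arrays. The groups were apart by the narrow gap between the lowest Dicer1-deficient array and control 3. The difference was 0.56 on the log2 scale (95% interval 0.08 to 1.04, unadjusted p = 0.0269, limma adjusted p = 0.261), and the other probe set had 0.12 with overlapping groups. The mean over the 7 arrays of each of its probe sets lay under the lower quartile of the table.

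Lhx9, a LIM homeobox gene that marks some amacrine cells in mouse retina, read 5.01, 4.91 and 5.0 in Dicer1-deficient arrays and 4.93, 4.72, 4.99 and 5.80 in control arrays at probe set 10358277. Control 4 stood above the other 6 arrays, which lay close together. The difference was -0.14 (95% interval -0.70 to 0.42, limma adjusted p = 0.908), and without control 4 it was 0.09. Of the 8 probe sets, 2 had positive and 6 negative differences, from -0.16 to 0.14, and 5 lay under the table's lower quartile.

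Prox1, a homeobox factor of horizontal cells, lens fibres and lymphatic endothelium, read 5.27, 4.67 and 5.08 in Dicer1-deficient arrays and 4.41, 4.89, 4.79 and 4.81 in control arrays at probe set 10361025. The groups overlapped through Dicer1-deficient array 2. The difference was 0.28 (95% interval -0.12 to 0.69, limma adjusted p = 0.555). Among its 7 probe sets 5 had positive and 2 negative differences. In 2 of them every Dicer1-deficient array lay above every control array, and in 1 below, against 7.25% and 6.1% of all probe sets. The largest difference was 0.56, at 10361024 (95% interval 0.06 to 1.05, limma adjusted p = 0.376). It read 5.27, 4.50 and 4.61 in Dicer1-deficient arrays and 4.16, 4.31, 4.47 and 4.01 in control arrays. Probe set 10361028 read 5.08, 5.01 and 5.05 in Dicer1-deficient arrays and 4.86, 4.57, 4.59 and 4.47 in control arrays, a difference of 0.42, whereas 10361029 read 3.81, 3.73 and 3.79 in Dicer1-deficient arrays and 3.98, 4.26, 4.04 and 3.91 in control arrays, a difference of -0.27. At these signals an absence of change cannot be told apart from an absence of measured RNA.

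**Figure D3:**
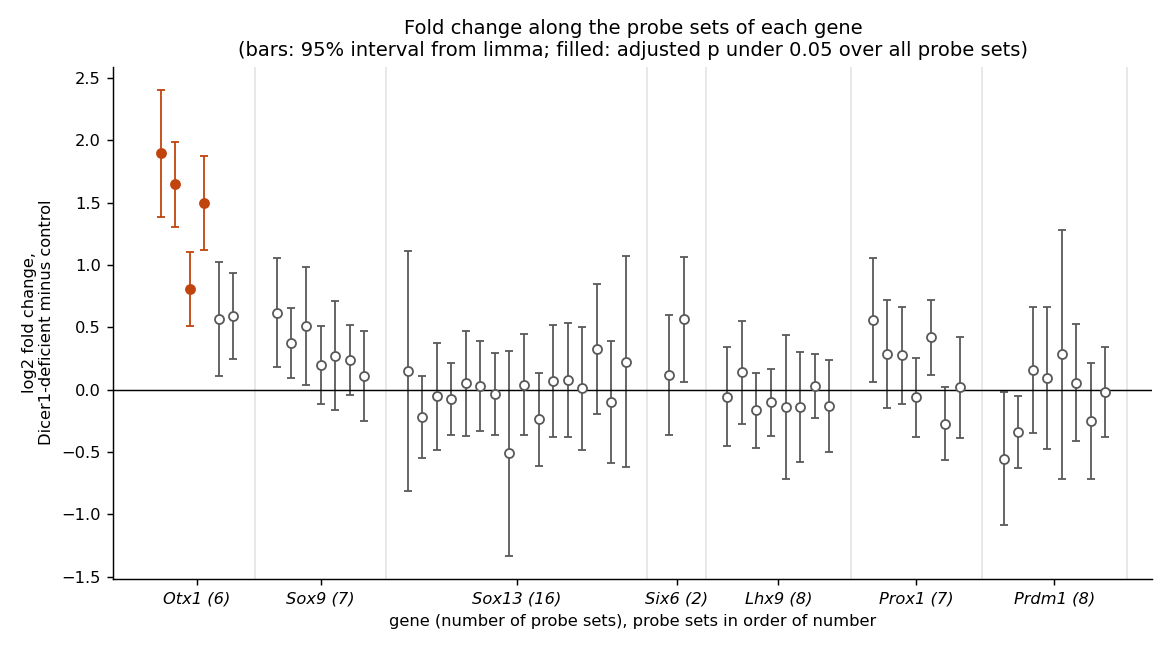
Log2 fold change, Dicer1-deficient minus control (vertical axis), of all 54 probe sets grouped by gene (horizontal axis), with 95% intervals from limma and filled points for adjusted p under 0.05 over all probe sets. The 4 filled points all belong to Otx1, the points of Sox9 all lie above 0, and those of Sox13, Lhx9, Prox1 and Prdm1 lie on both sides of it.

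Genes whose brightest signal followed Otx1 most closely over the 7 arrays, out of 3456 others with a mean above the table's median, were Aldh5a1, a mitochondrial dehydrogenase gene of GABA breakdown (Pearson r = 0.994), and Dcaf5, a ubiquitin ligase adaptor gene (r = 0.992). Their own differences were 0.60 and 0.28 on the log2 scale. For Sox9 they were Ssbp2 (r = 0.994) and the actin regulator gene Enah (r = 0.980), with differences of 0.18 and 0.34. For Sox13 they were the DNA repair gene Ercc5 (r = 0.996) and Zfp839 (0.992), and for Prdm1 the coagulation factor gene F5 (0.988) and the telomere protein gene Terf1 (0.956). For the 3 dim genes they were 4933427D14Rik (r = 0.956) and Pcbp3 (0.945) for Six6, Ggps1 (0.987) and Zc3h10 (0.985) for Lhx9, and Carf (0.973) and Srsf1 (0.956) for Prox1. These are descriptions over 7 arrays that share the group difference and the shift of control 4.

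Relatives of the 7 genes in their own families were measured in part, and none passed. Of 11 further genes of the same homeobox, Sox and Prdm families, 5 had positive differences, with a median of -0.02 and a range of -0.22 to 1.07. The largest was Sox11, a SoxC gene of neural precursors, which read 10.33, 10.26 and 10.21 in Dicer1-deficient arrays and 9.50, 9.41, 9.60 and 8.26 in control arrays (log2 fold change 1.07, limma adjusted p = 0.152, and 0.0688 on the mean of its probe sets). The groups did not overlap, and control 4 lay over 1 log2 unit under the other controls. Sox4, of the same group, had 0.26 (limma adjusted p = 0.352), Six4 had 0.17, Lhx1 had -0.22 and Prox2 had -0.03.

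Among 81 further eye development transcription factors, 21 were measured (Sox11, Sox4, Six4, Lhx1 and Lhx4 of the relatives above among them), and 2 rose and 1 fell, where 1.42% of all genes were called higher and 0.917% lower. Their median difference was 0.10, against -0.01 over all genes. Mycn, which drives growth of retinal progenitors, read 7.40, 6.69 and 7.01 in Dicer1-deficient arrays and 5.74, 5.99, 5.75 and 5.46 in control arrays (log2 fold change 1.30, limma adjusted p = 0.0155). Its control arrays lay under the table's median, so their level may be background. Nr2e1, an orphan receptor gene of retinal progenitors, averaged 7.90 ± 0.11 (SD, n = 3) in Dicer1-deficient and 7.20 ± 0.09 (SD, n = 4) in control arrays, and rose by 0.69. Tfap2a, an AP-2 gene of amacrine cells, lens and surface ectoderm, averaged 7.65 ± 0.37 (SD, n = 3) in Dicer1-deficient and 8.64 ± 0.21 (SD, n = 4) in control arrays, and its log2 fold change was -0.99. Over all genes the limma adjusted p was 0.0155 for Nr2e1 and 0.0470 for Tfap2a. Meis1 (0.63, limma adjusted p = 0.0735), Tfap2b (0.86, 0.0938) and Hey2 (-0.59, 0.10) did not pass at the brightest probe set. Neurod4, a proneural gene of the retina, had a difference of 1.83 with a wide 95% interval of 0.084 to 3.58 and did not pass (limma adjusted p = 0.325). On means of probe sets 3 of the 21 rose (Mycn, Tfap2b and Meis1) and 2 fell (Tfap2a and Hey2), where 3.03% of all genes were called higher and 2.83% lower. Mycn then had 0.52 (limma adjusted p = 0.0122), and Nr2e1, at 0.45 (0.0758), no longer passed.

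**Figure D4:**
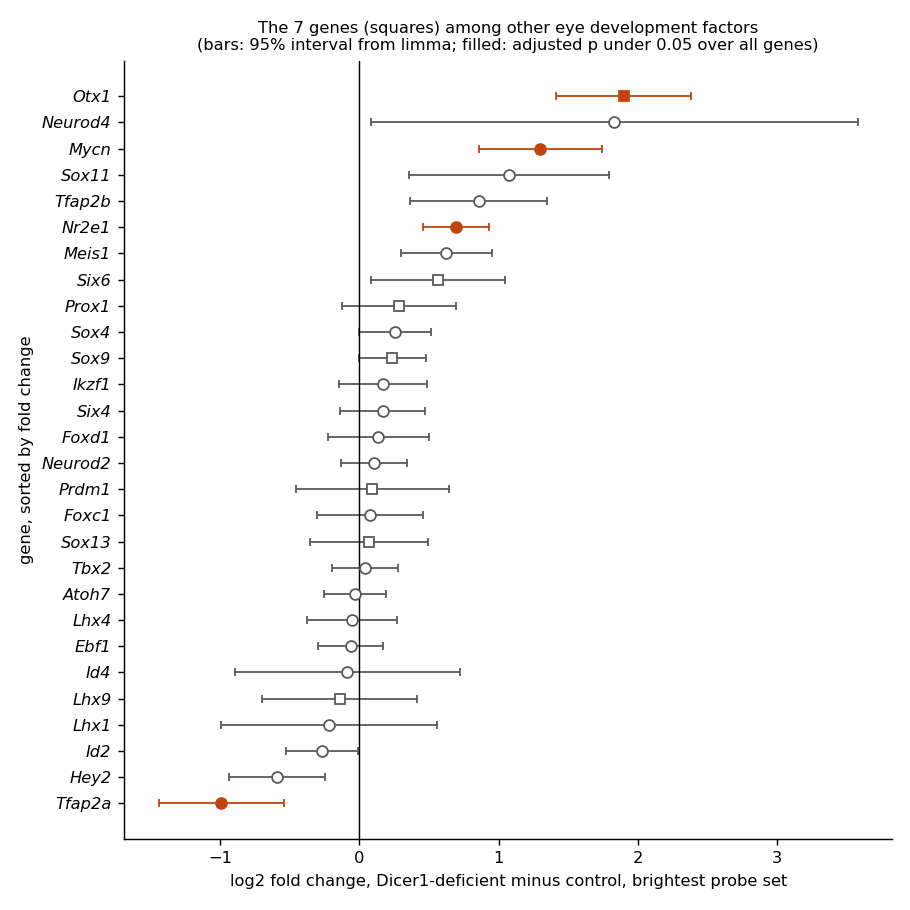
Log2 fold change, Dicer1-deficient minus control, at the brightest probe set (horizontal axis) of the 7 genes (squares) and the 21 further eye development factors measured (circles), sorted, with 95% intervals from limma and filled symbols for adjusted p under 0.05 over all genes. Otx1 is the highest at 1.90, Mycn (1.30) and Nr2e1 (0.69) are the other higher calls, and Tfap2a (-0.99) is the only lower one.

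Markers of the cell types that a dissected RPE sample can hold moved in part with the groups, and their part in the values above was not tested. The mean level of the RPE markers (12 of 28 measured, with 2 positive and 10 negative differences) was 10.23 to 10.48 in Dicer1-deficient and 10.57 to 10.82 in control arrays. The Atp1b1 gene of a sodium pump subunit rose by 0.62 and the Kcnj13 gene of a potassium channel fell by 1.19 on the log2 scale, the only calls of that list at the brightest probe set, and its median difference was -0.37. On means of probe sets 1 of the 12 was called higher and 4 lower. Of all genes, 1.42% were called higher and 0.917% lower at the brightest probe set, and 3.03% and 2.83% on means. Fibroblast and scleral markers (10 of 16 measured) had 10.83 to 11.07 in Dicer1-deficient and 11.20 to 11.33 in control arrays, and melanocyte and Schwann cell markers (3 of 12) had 8.33 to 8.47 in Dicer1-deficient and 8.83 to 9.26 in control arrays. The ranges of these 3 lists were apart, while no fibroblast, scleral, melanocyte or Schwann cell marker passed at the brightest probe set. Mean levels were also apart, in the other direction, for the 21 further eye development factors and for the 7 genes. The former had 7.87 to 8.01 in Dicer1-deficient and 7.55 to 7.83 in control arrays, the latter 7.30 to 7.40 and 6.79 to 6.99. The mean of the 7 genes includes Otx1, with its difference of 1.90, and does not show a rise of the 7 together. At their brightest probe sets Sox13, Lhx9, Prox1 and Prdm1 had overlapping groups. How often the means of such lists are apart was not tested. On means of probe sets, 2 of the 10 fibroblast and scleral markers and 2 of the 3 melanocyte and Schwann cell markers were called lower.

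The retinal lists had few measured members. Retinal progenitor markers (3 of 15, with Nr2e1 called higher) averaged 6.31 to 7.30 in Dicer1-deficient and 5.82 to 6.50 in control arrays. Photoreceptor markers (5 of 25, with none called) averaged 5.92 to 6.40 in Dicer1-deficient and 4.99 to 6.02 in control arrays. Control 4 was the highest of these control arrays. Inner retinal neuron markers (5 of 27, with Tfap2a called lower) averaged 7.46 to 7.63 in Dicer1-deficient and 7.43 to 7.66 in control arrays. With probe sets averaged, Tfap2a was again called lower and Tfap2b was called higher, while Nr2e1 was not called. Lens markers (9 of 24), which bear on Prox1, averaged 7.08 to 8.46 in Dicer1-deficient and 6.28 to 7.62 in control arrays. No marker was called in the lens list or in those of endothelium and lymphatic vessels (2 of 12, at 9.37 to 9.72 in Dicer1-deficient and 9.46 to 9.73 in control arrays), ciliary and surface epithelium (5 of 13, at 5.73 to 5.97 in Dicer1-deficient and 5.80 to 6.33 in control arrays), and macrophages and B cells (5 of 12, at 8.26 to 8.38 in Dicer1-deficient and 8.15 to 8.58 in control arrays). Of the photoreceptor markers 3 of 5 measured, of the retinal progenitor markers 2 of 3, and of the ciliary and surface epithelium markers 3 of 5 had a mean under the table's median.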

How the data were processed

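The log2 signals that the authors deposited form a single table with 65535 probe sets and 7 arrays. RMA, a method of background correction, quantile normalization and probe summary, and Partek 6.6 are listed per the submitters' processing notes, with no account of the role of either. That the scale is log2 follows from the values, 2.71 to 13.5. A single symbol was annotated for 53644 probe sets, several for 877 and none for 11014. The RefSeq gene table of GRCm38.p6 renewed 698 symbols, while 4321 were current and 13 had no match. Of the resulting 5017 genes, 4918 lie on chromosomes 1, 10, 11, 12 and 13, and Otx2, Mitf and Pax6 were not analysed here. Each gene took the values of its brightest probe set over the 7 arrays, and dim genes were kept. Dicer1-deficient arrays (3) were compared with control arrays (4) in limma 3.58.1, with lmFit and eBayes under R 4.3.3. Tests were two-sided, with Benjamini-Hochberg adjustment across the whole table and a threshold of 0.05. Replicate numbers only name arrays. The labels give the same date for all arrays. The number of arrays limits the precision.

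The members, the gene lists and the tests were chosen with earlier results of these data known. Genes were named by a rule that takes the members, Dicer1, the called genes of the wider list and of the marker lists, and for each member the 2 genes above the median signal that correlated best with it. Family relatives, uncalled genes of the wider list and the tissue markers Pmel and Rdh5 were picked after their values were seen. On simulated data diffSplice made too many false calls, so the within-array difference was added. Alternatives changed the summary of probe sets, scaling, filters, moderation and thresholds, or left out each array. Tables and plots used Python 3.11.15, pandas 2.3.3 and matplotlib 3.10.9.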

Additional observations from a re-analysis of the deposited data

Results flagged for a closer look

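In 5 of the 54 probe sets of the 7 genes, 1 control array stood apart from the other controls by Dixon's gap test at its 95% critical value for 4 arrays, which chance exceeds in about 1 of 20 groups. Of all probe sets measured, 9.56% did so, and control 4 was the array in 80.1% of those. Control 4 was the high one at Sox13 probe set 10357793, with 8.96 against 8.32 to 8.36 in the other controls, and at Lhx9 probe set 10358280, with 4.18 against 3.67 to 3.75. It was the low one at Prox1 probe set 10361030, with 4.01 against 4.57 to 4.58. Control 2 was low at Sox13 probe set 10357802, with 6.46 against 6.99 to 7.05, and control 1 was low at Sox9 probe set 10382335, with 9.52 against 9.87 to 9.90. On means of probe sets, control 4 was low for Sox9 (8.51 against 8.65 to 8.66) and high for Lhx9 (4.57 against 4.13 to 4.20).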

How the results depend on the processing

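Otx1 stayed higher and past its threshold under every alternative run for it, with log2 differences of 1.17 to 2.0, and down to 1.08 where the mean of probe sets was combined with leaving out an array. Sox9 passed only on the mean of all probe sets (0.33, and 0.29 with control 4 left out), and the cause was not tested. On the mean of probe sets above the table's median it kept the same 0.33 and did not pass (limma adjusted p = 0.0513). Signs turned for Sox13 (-0.015 on the mean, -0.060 on the median, -0.040 on the mean of probe sets above the table's median, and -0.0062 on the mean with control 4 left out), for Prdm1 (-0.072 on the mean, -0.080 with array weights, -0.19 on the mean with control 4 left out) and for Lhx9 (0.011 on the median, 0.074 with array weights, 0.030 on the mean with control 4 left out), none of them called, and the cause was not tested. Leaving out 1 array at a time, differences ran from 1.71 to 2.0 for Otx1, 0.19 to 0.29 for Sox9, -0.051 to 0.21 for Sox13, 0.44 to 0.70 for Six6, -0.27 to 0.092 for Lhx9, 0.15 to 0.45 for Prox1 and -0.092 to 0.22 for Prdm1. In the same fits, genes called numbered 33 to 260 (117 with all arrays), probe sets called 138 to 1216 (561), member probe sets called higher 1 to 5 (4), probe sets called by diffSplice 55 to 684 (127) and, among the members, 0 to 2 (1), the upper counts of genes and probe sets being those without control 4. Genes called were 294 on the mean of probe sets, 176 on the median, 265 on the mean of probe sets above the table's median, 385 with array weights, 37 at a threshold of 0.01, 213 at 0.1 and 853 on the mean with control 4 left out. With only probe sets above the table's median, 2 member probe sets were called higher, and diffSplice called 35 probe sets, 0 of them of the members. The within-array difference called 20 probe sets, and 43 with control 4 left out, 0 of them of the members each time. A filter on dim genes dropped Six6, and a stricter one also Lhx9 and Prox1. No paired analysis was possible because the labels give no pairing of the arrays. Signals near background limit Six6, Lhx9, Prox1 and the dimmer probe sets of Otx1.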
